A study of Homo sapiens with 2 samples.

Results

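The mitosis genes described here are 35 genes whose products drive or carry out cell division, chosen by name as a list and looked up among the transcript clusters (gene-level units) of an expression array. Every member had a cluster, 35 of 67528 in all. For 34 of them the cluster carried that symbol alone, out of 22465 genes named in this way. The cluster of BUB1B is also annotated to PAK6, so its values stand apart from the counts below. The data compare FaDuCR, a cetuximab-resistant line, with untreated parental FaDu cells. The labels give FaDu, an established human line of head and neck squamous carcinoma, as the cell line of both samples. Cetuximab is an antibody against the epidermal growth factor receptor. Each line gave total RNA for 1 Affymetrix Human Transcriptome Array 2.0. The sources used here do not say how resistance was obtained, whether the resistant line is 1 clone, or whether cetuximab was in the medium at harvest. Resistant and parental cells were measured on different arrays and may also differ by culture and passage. None of these can be told apart from the label.

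Cells enter mitosis when cyclin B activates the kinase CDK1. Polo and Aurora kinases then build the spindle, and the spindle checkpoint holds back the anaphase-promoting complex (APC/C), a ubiquitin ligase, until chromosomes are attached. The complex then destroys securin and cyclin B, chromosomes separate, and the midzone of the spindle directs cytokinesis. Most of these genes are transcribed in late S phase and G2, when the MuvB complex with B-MYB and FOXM1 activates promoters that the same MuvB core, as part of the DREAM complex, silences in quiescent cells. MuvB binds a promoter element called CHR, and the factor NF-Y binds CCAAT boxes that often lie next to it. Many of the genes are used as proliferation markers in tumours.

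RefSeq promoters (GRCh38.p14, 250 bases before to 50 bases after a transcript start) were listed for 29 of the 35 members, with 36 entries because some genes have several starts. AURKA, TTK, UBE2C, BIRC5, TPX2 and FOXM1 had no entry. The CHR letters searched were TTTGAA and TTCGAA, and the NF-Y letters CCAAT, on both strands. CHR letters stood in 66.7% of the member promoters (24 of 36), against 16.4% of all 35116 promoters of the same length. CCAAT stood in 80.6% of member promoters and in 34.6% of all promoters, and both stood in 58.3% and 6.38%. A match describes letters in a window and is not a measured binding site. With 1 start per gene, the most upstream, CHR and CCAAT letters overlapped in 1 gene.

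The windows printed here are those of members that differed by at least 2-fold between the arrays and whose window overlaps no annotated gene, so that genes lower and higher in the resistant line can be read side by side. Each is the 160 bases directly before the most upstream listed start, 5′ to 3′ on the gene's strand, and capitals mark CHR and CCAAT letters or their reverse complements. The PRC1 window is chr15:90994536-90994695 on the minus strand and that of CCNB2 is chr15:59104986-59105145 on the plus strand. KIF11 lies at chr10:92592970-92593129 on the plus strand and ASPM at chr1:197146670-197146829 on the minus strand. The CCNA2 window is chr4:121823884-121824043 on the minus strand. The first 4 genes were lower in the resistant line and CCNA2 was higher. AURKB, DLGAP5 and TTK were also at least 2-fold lower but are not shown. The AURKB window overlaps the annotation of AURKB itself, that of DLGAP5 overlaps LOC105370508, and TTK had no entry. In the most upstream promoter, DLGAP5 had 3 matches to CHR letters and AURKB had 0. The CHR letters of the 4 lower genes shown are thus not a trait of all lower members.
PRC1: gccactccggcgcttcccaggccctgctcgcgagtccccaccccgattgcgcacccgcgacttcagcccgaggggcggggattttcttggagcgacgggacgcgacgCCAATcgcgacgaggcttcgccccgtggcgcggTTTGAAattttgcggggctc
CCNB2: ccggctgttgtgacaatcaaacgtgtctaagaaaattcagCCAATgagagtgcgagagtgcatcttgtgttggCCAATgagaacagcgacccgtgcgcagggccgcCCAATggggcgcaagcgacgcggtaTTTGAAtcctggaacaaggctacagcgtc
KIF11: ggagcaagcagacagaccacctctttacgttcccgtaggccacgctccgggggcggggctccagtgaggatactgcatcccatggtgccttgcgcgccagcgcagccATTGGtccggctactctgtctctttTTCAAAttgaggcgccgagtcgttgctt
ASPM: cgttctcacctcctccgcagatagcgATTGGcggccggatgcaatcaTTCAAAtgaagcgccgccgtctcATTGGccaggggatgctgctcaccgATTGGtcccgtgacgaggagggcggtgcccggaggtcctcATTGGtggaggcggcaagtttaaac
CCNA2: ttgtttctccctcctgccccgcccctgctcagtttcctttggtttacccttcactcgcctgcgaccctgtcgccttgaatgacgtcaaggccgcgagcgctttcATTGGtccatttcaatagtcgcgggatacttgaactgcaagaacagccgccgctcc
Counting from -1 at the base before the start, a CCAAT box begins at -53 in PRC1 and KIF11, at -54 in CCNB2 and at -56 in CCNA2. CHR letters lie between this box and the start in PRC1 (from -20), KIF11 (from -28) and CCNB2 (from -29). The CHR letters searched are not in the CCNA2 window. That window does hold CTTGAA, which was not searched, so the absence of a CHR from CCNA2 cannot be read from it. ASPM has 4 CCAAT boxes with CHR letters among them.

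**Figure D1:**
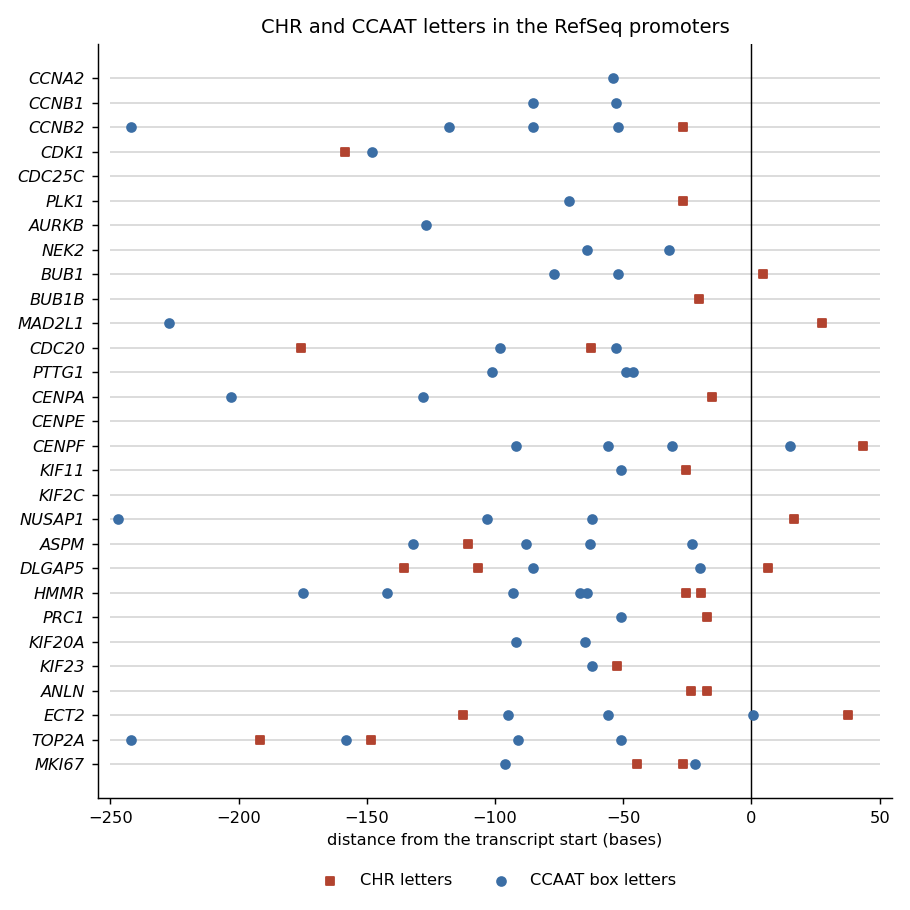
Positions of CHR letters (red squares) and CCAAT letters (blue circles) in the most upstream RefSeq promoter of 29 mitosis genes, by distance from the transcript start in bases (horizontal axis, start at 0). Most CCAAT marks lie within 100 bases before the start, and CDC25C, CENPE and KIF2C show neither mark.

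Members with and without these letters were also compared by their difference between arrays. The 19 members with CHR letters in the most upstream promoter had a median difference (resistant minus parental, log2) of -0.37, and the 9 without them -0.31. Those 9 lack only the letters searched, at the most upstream listed start. CCNA2, with CTTGAA in its window, is among them, so these medians do not separate genes with and without a CHR. For CCAAT the medians were -0.40 in 24 members and -0.09 in 4, the second group being too small to describe more than its members. BUB1B was left out of these medians. CHR and CCAAT letters both lay in the last 100 bases before a start in 27.8% of member promoters and 0.99% of all promoters, a window chosen after the positions were seen.

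On the arrays, the mitosis genes were on the whole slightly lower in the resistant line and strongly expressed in both. The deposited values are log2 values, so a difference of 1 is 2-fold. All 34 members lay above the brightness level of 5.98, the median over genes of the higher value of both arrays, and 33 lay among the brightest 25% of genes. The median difference of the members was -0.36, against 0.01 over the 11224 genes above the brightness level and 0.02 over the 5613 brightest. Of the members, 26 were lower in the resistant line (76.5%, against 49.2% of genes above the brightness level). At 2-fold, 7 of 34 were lower (20.6%, against 14.1% of genes above the brightness level and 17.1% of the brightest). At 2-fold, 1 was higher (2.94%, against 16.0% and 19.0%). The share at least 2-fold lower was thus near the background, while few members were higher. In RNA of whole cultures, fewer cells in G2 and mitosis and less RNA per such cell cannot be told apart.

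**Figure D2:**
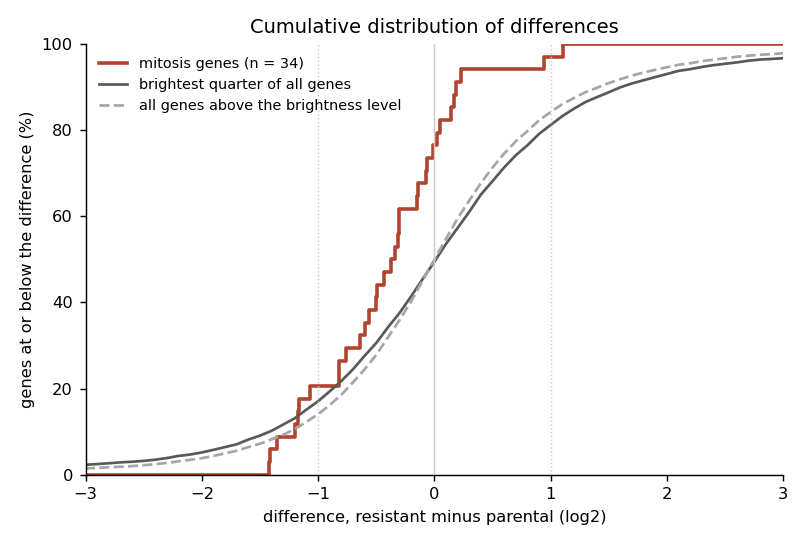
Percentage of genes (vertical axis) at or below each log2 difference, resistant minus parental (horizontal axis), for 34 mitosis genes (red), the brightest 25% of all genes (solid grey) and all genes above the brightness level (dashed grey). The red line reaches 76.5% at 0, where both grey lines are near 49%, and it ends at 1.11.

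The differences of the members ran from -1.42 to 1.11 with an interquartile range of -0.81 to -0.02, against -0.67 to 0.75 over the brightest 25% of genes. Of the 34, 19 differed by at most 0.5 log2 units and 11 by at most 0.25. The median size of the difference, without its sign, was 0.46 in the members. It was 0.60 over genes above the brightness level and 0.71 over the brightest 25%. With 1 array per line there is no replicate spread. A measure within the arrays is the agreement of clusters of the same gene, in 184 genes with several clusters above the brightness level. Their lowest and highest difference lay a median of 0.175 apart, with an upper quartile of 0.55. Such clusters share the same RNA and arrays, so this gap leaves out variation between cultures or arrays. Over 364 olfactory receptor genes the differences had a standard deviation of 0.42. Those genes lie at low values, so their spread need not hold for the bright members. Next to the 2-fold threshold, ASPM (-1.07) and KIF11 (-1.16) were just inside on the lower side and CCNB1 and MKI67 (both -0.82) just outside, and CCNA2 (1.11) and CENPA (0.94) lay on either side of it above.

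**Figure D3:**
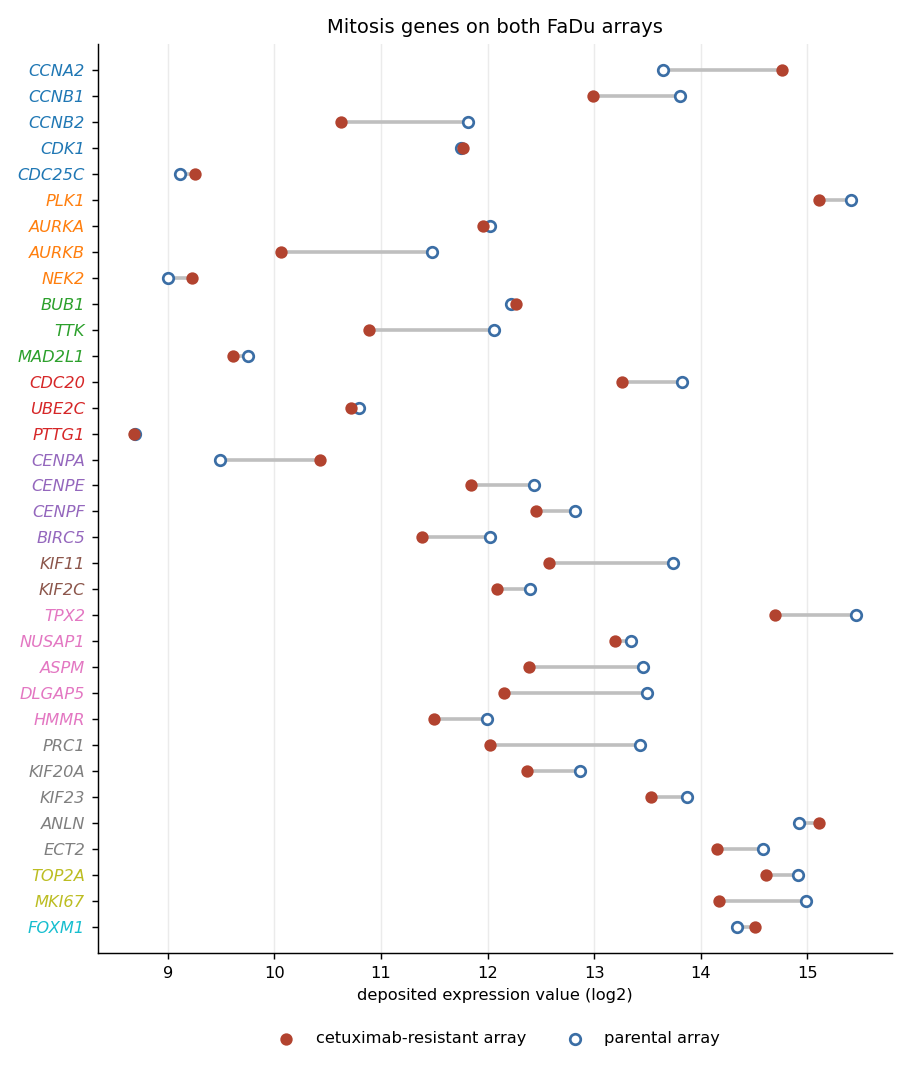
Deposited log2 value of 34 mitosis genes (rows, with names coloured by role as in the plot of differences and neighbours) on the cetuximab-resistant array (filled red) and the parental array (open blue), 1 array each. AURKB, PRC1 and DLGAP5 show the widest gaps with the resistant array lower, and CCNA2 and CENPA the widest with it higher.

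The cyclins that activate CDK1 did not move together. CCNA2, the gene of cyclin A2, which acts in S phase and G2, stood at 14.76 in the resistant line and 13.65 in the parental line, 2.16-fold higher. It was the only member at least 2-fold higher. CCNB2, which encodes cyclin B2, stood at 10.62 in resistant and 11.82 in parental cells, 2.30-fold lower. Its relative CCNB1, the main mitotic cyclin, stood at 12.99 in resistant and 13.81 in parental cells, 1.77-fold lower. CDK1, their catalytic partner, differed by 0.02, at 11.77 in resistant and 11.75 in parental cells. CDC25C, the phosphatase that removes inhibitory phosphates from CDK1, stood at 9.25 in resistant and 9.11 in parental cells. Both cyclin B genes were thus lower in the resistant line, beside a kinase gene that differed by 0.02.

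Among the mitotic kinases AURKB stood apart from the rest. AURKB, the kinase of the chromosomal passenger complex, which corrects faulty attachments and acts in cytokinesis, stood at 10.06 in resistant and 11.48 in parental cells. At 2.68-fold lower it had the largest difference of all 34 members. Its relative AURKA, which works at spindle poles, stood at 11.96 in resistant and 12.02 in parental cells. PLK1, the polo kinase needed from mitotic entry to exit, stood at 15.11 in resistant and 15.41 in parental cells. NEK2, a kinase of centrosome separation, stood at 9.23 in resistant and 9.0 in parental cells. The last 3 differed by at most 0.30 log2 units.

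The 2 members of the passenger complex and its other subunits went different ways. BIRC5, the gene of survivin, which brings the complex to centromeres, stood at 11.38 in resistant and 12.02 in parental cells, a difference of -0.64. The scaffold gene INCENP stood at 11.35 in resistant and 11.61 in parental cells. CDCA8, the gene of borealin, stood at 10.65 in resistant and 9.26 in parental cells, 1.39 log2 units higher. INCENP and CDCA8 are not members and were chosen as partners of AURKB after their values were seen.

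Among the spindle checkpoint members TTK was lower, and BUB1 and MAD2L1 differed little. TTK, the gene of the MPS1 kinase that starts checkpoint signalling at kinetochores, stood at 10.89 in resistant and 12.06 in parental cells, 2.25-fold lower. BUB1, a kinetochore kinase that recruits other checkpoint proteins, stood at 12.27 in resistant and 12.22 in parental cells. MAD2L1, which encodes the inhibitor MAD2, stood at 9.61 in resistant and 9.75 in parental cells. BUB3, a checkpoint partner that is not a member, stood at 11.86 in resistant and 12.59 in parental cells. It was named after its values were seen. The cluster annotated to PAK6 and BUB1B stood at 10.23 in resistant and 10.55 in parental cells, a difference of -0.32 that cannot be assigned to either gene.

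None of the members that act with the APC/C differed by 2-fold. CDC20, the activator of the ligase that the checkpoint restrains, stood at 13.26 in resistant and 13.82 in parental cells, a difference of -0.56. UBE2C, the ubiquitin-conjugating enzyme of the complex, stood at 10.72 in resistant and 10.79 in parental cells. PTTG1, the gene of securin, which holds separase inactive, stood at 8.68 in resistant and 8.69 in parental cells. UBE2C and PTTG1 differed by less than 0.1 log2 units. A cluster annotated to CDC20P1, a pseudogene of CDC20, stood at 12.53 in resistant and 13.26 in parental cells, and signal shared between such copies could not be separated here.

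Centromere genes included the member with the next largest positive difference. CENPA, the histone H3 variant that marks centromeres, stood at 10.43 in resistant and 9.49 in parental cells, 1.92-fold higher. CENPE, a kinesin that moves chromosomes to the spindle equator, stood at 11.84 in resistant and 12.44 in parental cells. CENPF, a large protein of the outer kinetochore, stood at 12.45 in resistant and 12.82 in parental cells. Both of these were lower by less than 2-fold.

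The motors and organisers of the spindle were the roles with the lowest values relative to the parental line. All 7 of these genes had values below those of the parental line (49.2% of genes above the brightness level did). Of the 7, 3 were lower by at least 2-fold (background 14.1%). Both roles were singled out by these same values, so the shares lend them no independent support. The 3 members that act with the APC/C and the 2 of the chromosome role (TOP2A, MKI67) were also all below 0. The smallest of the 7 differences, that of NUSAP1, was -0.15. KIF11, the kinesin that pushes spindle poles apart and the target of several experimental drugs, stood at 12.58 in resistant and 13.74 in parental cells, 2.23-fold lower. KIF2C, a kinesin that shortens microtubules at kinetochores, stood at 12.09 in resistant and 12.40 in parental cells. DLGAP5, whose protein stabilises spindle fibres near chromosomes, stood at 12.15 in resistant and 13.50 in parental cells, 2.55-fold lower. ASPM, a spindle pole protein known from inherited microcephaly, stood at 12.39 in resistant and 13.46 in parental cells, 2.10-fold lower.

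The other organisers differed by less than 2-fold. TPX2, which activates AURKA on spindle microtubules, stood at 14.70 in resistant and 15.46 in parental cells, a difference of -0.76 beside the -0.06 of AURKA. HMMR, a hyaluronan receptor that also binds the spindle, stood at 11.50 in resistant and 11.99 in parental cells. NUSAP1, a microtubule bundler near chromatin, stood at 13.20 in resistant and 13.35 in parental cells. The organisers as a group had a median difference of -0.76 over 5 genes.

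In the midzone and cytokinesis group, PRC1 was the gene with a difference past 2-fold. PRC1 cross-links the antiparallel microtubules of the anaphase midzone, and it stood at 12.02 in resistant and 13.43 in parental cells, 2.66-fold lower. KIF20A, a midzone kinesin, stood at 12.37 in resistant and 12.87 in parental cells. KIF23, the motor subunit of centralspindlin, stood at 13.53 in resistant and 13.87 in parental cells. ECT2, the exchange factor that activates RhoA at the cleavage site, stood at 14.15 in resistant and 14.58 in parental cells. ANLN, the gene of anillin, a scaffold of the contractile ring, stood at 15.11 in resistant and 14.92 in parental cells, a difference of 0.19 where the other genes of this group had negative ones. Of the partners, RACGAP1, the other centralspindlin subunit, differed by -0.85, and KIF4A, the kinesin that binds PRC1, by 0.91. These partners were chosen after their values were seen.

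MKI67, the gene of the Ki-67 proliferation antigen, which coats mitotic chromosomes, stood at 14.17 in resistant and 14.99 in parental cells, 1.77-fold lower. TOP2A, the DNA topoisomerase that untangles sister chromatids, stood at 14.61 in resistant and 14.91 in parental cells. FOXM1, the forkhead factor that activates G2 genes, was not lower, at 14.51 in resistant and 14.34 in parental cells. Of these 3 genes, none differed by 2-fold.

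Position on the chromosome moved with some of the largest member differences. For each member the median difference of the 20 nearest genes above the brightness level (10 on each side) was taken in RefSeq order, a measure added after the data were seen. AURKB on chromosome 17 (-1.42) had neighbours at a median of -1.09, and DLGAP5 on chromosome 14 (-1.35) had neighbours at -1.16. On the positive side, CENPA on chromosome 2 (0.94) had neighbours at 0.89, and CCNA2 on chromosome 4 (1.11) had neighbours at 0.66. These 4 genes therefore differed from their surroundings by less than 0.5 log2 units. The part of the neighbourhood in their values was not tested.

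Other members differed from their surroundings. CCNB2 on chromosome 15 (-1.20) had neighbours at 0.17, and ASPM on chromosome 1 (-1.07) had neighbours at -0.05. The difference minus that of the neighbours was -0.89 for PRC1 on chromosome 15, -0.89 for TTK on chromosome 6 and -0.77 for KIF11 on chromosome 10. FOXM1 on chromosome 12 (0.17) lay among neighbours at -0.58. Relative to neighbours, 27 of 34 members were lower (79.4%, against 50.1% of genes above the brightness level taken in the same way), and the median was -0.37, against -0.005. CCNB2 and ASPM stayed at least 2-fold lower (5.88%, against 11.3% of genes), and 0 members were at least 2-fold higher, against 13.7% of genes.

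**Figure D4:**
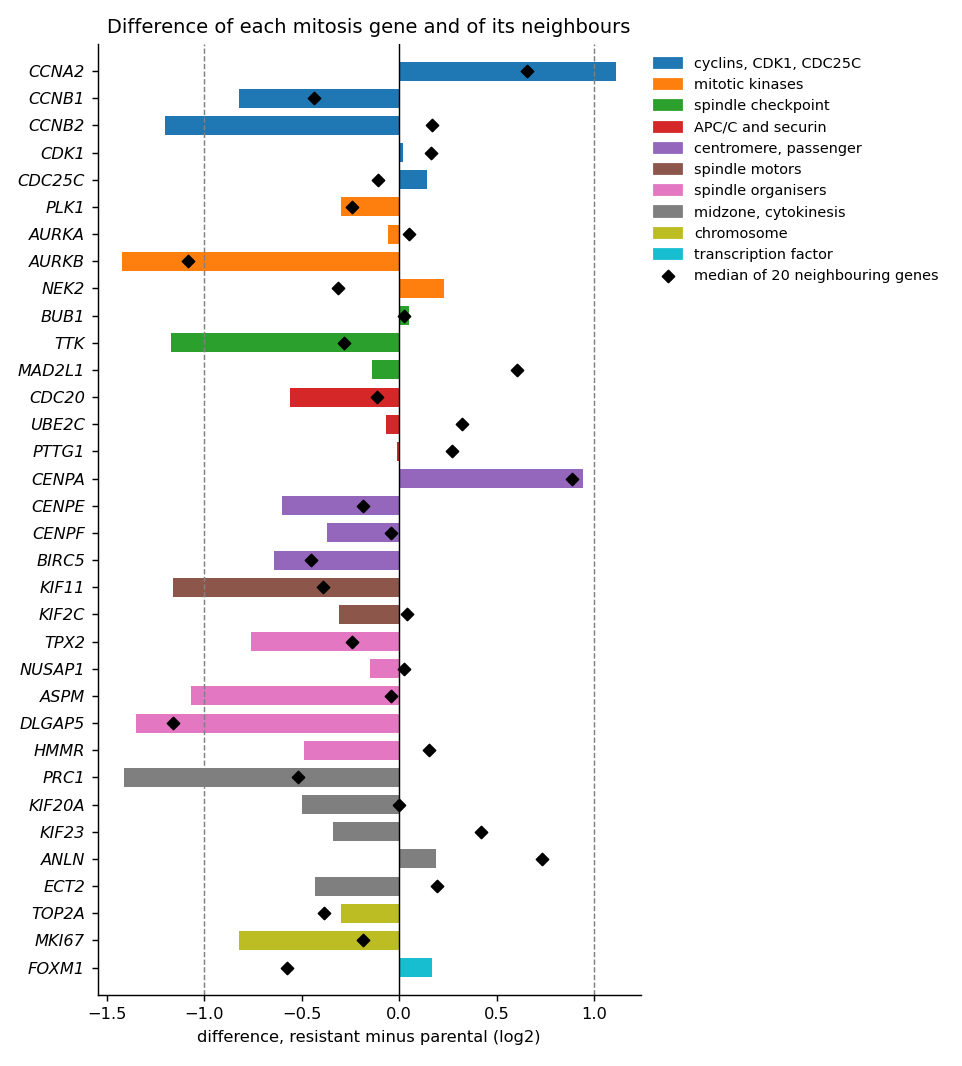
Log2 difference, resistant minus parental (horizontal axis), of 34 mitosis genes (bars, coloured by role) and the median difference of the 20 genes nearest to each (black diamonds), with dashed lines at 2-fold. The diamonds of AURKB, DLGAP5 and CENPA lie close to the ends of their bars, and those of CCNB2 and ASPM lie near 0.

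Other genes of the mitotic machinery had like shares past 2-fold. Over 6 further lists (kinetochore, APC/C and mitotic exit, cohesin and condensin, other mitotic kinesins, centrosome and spindle pole, other G2/M regulators), 127 of 137 genes were measured. Past 2-fold, 27 (21.3%) were lower and 5 (3.94%) higher in the resistant line, and the median difference was -0.29. As for the members, these shares are read against 14.1% and 16.0% over genes above the brightness level.

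Kinetochore genes were split. Of 34 measured, 12 were at least 2-fold lower (35.3%, against 14.1% of genes above the brightness level) and 1 higher (2.94%, against 16.0%). The median was -0.07, and 14 genes were above 0. KNTC1, a subunit of the complex that loads dynein on kinetochores, stood at 11.11 in resistant and 13.04 in parental cells. SKA2 stood at 11.84 in resistant and 13.53 in parental cells, and SKA1, of the same microtubule-tracking complex, at 10.27 in resistant and 8.25 in parental cells. SKA1 lies on chromosome 18 and SKA2 on chromosome 17. Genes of 1 complex thus lay past 2-fold in opposite directions.

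Of 9 other mitotic kinesins, 3 were at least 2-fold lower (33.3%, against 14.1% of genes above the brightness level). At 2-fold, 0 were higher (against 16.0% of genes), and the median was -0.63. KIF20B stood at 11.17 in resistant and 12.65 in parental cells, KIF14, a motor of cytokinesis, at 11.51 in resistant and 12.81 in parental cells, and KIF22, which binds chromosome arms, at 10.18 in resistant and 11.38 in parental cells. Of 18 centrosome and spindle pole genes, 4 were at least 2-fold lower (22.2%) and 0 higher (median -0.36). CEP55, needed for the final cut of cytokinesis, stood at 9.37 in resistant and 11.31 in parental cells, CEP192, a centrosome scaffold, at 9.76 in resistant and 10.95 in parental cells, and HAUS5, of the augmin complex, at 6.81 in resistant and 7.93 in parental cells. In both lists the named genes, those with the largest differences, were lower.

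Of 27 other G2/M regulators, 4 were at least 2-fold lower (14.8%) and 2 higher (7.41%), with a median of -0.39. The lower share lay near the 14.1% of genes above the brightness level, and the higher share under their 16.0%. GTSE1, a microtubule-binding protein of G2 and S phase, stood at 10.01 in resistant and 12.09 in parental cells, TROAP at 8.97 in resistant and 10.70 in parental cells, and DEPDC1B at 8.36 in resistant and 10.06 in parental cells. Of 19 APC/C and exit genes, 3 were at least 2-fold lower (15.8%, also near the 14.1%) and 0 higher (median -0.14). ESPL1, the gene of separase, which cleaves cohesin, stood at 8.90 in resistant and 10.24 in parental cells, and the APC/C subunit genes ANAPC11 and ANAPC7 differed by -1.28 and -1.18. Cohesin and condensin genes had no common direction, with 1 of 20 lower, 2 higher and a median of 0.05. The condensin II subunit genes NCAPD3 and NCAPH2 stood on opposite sides, at 11.21 and 8.63 in resistant and 13.24 and 7.28 in parental cells, and MAU2, a cohesin loader, differed by 1.11.

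**Figure D5:**
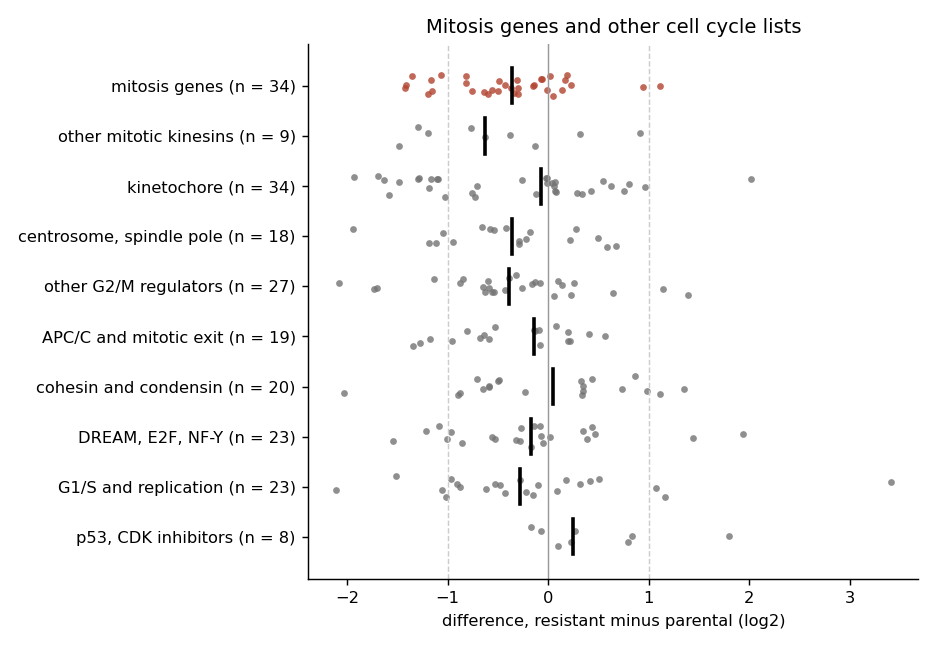
Log2 difference, resistant minus parental (horizontal axis), of each gene (points) in the mitosis genes (red) and in 9 other cell cycle lists (grey), with list medians as black bars and dashed lines at 2-fold. The kinetochore list holds 12 genes at or below -1 beside a median of -0.07, and the mitosis genes span -1.42 to 1.11.

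Of 23 genes of the factors that control mitotic promoters, 4 were lower by 2-fold or more (17.4%) and 2 higher (8.7%), with a median of -0.17. The lower share lay near the 14.1% of genes above the brightness level, and the higher share under their 16.0%. All 3 genes of the retinoblastoma family, which repress cell cycle genes, were among the lower: RB1 stood at 11.65 in resistant and 12.74 in parental cells, RBL1 at 10.31 in resistant and 11.85 in parental cells, and RBL2 at 9.82 in resistant and 11.04 in parental cells. RBL1 and RBL2 encode p107 and p130, the pocket proteins of DREAM. NFYA, the subunit of NF-Y that reads the CCAAT box, stood at 9.25 in resistant and 7.81 in parental cells, and E2F5, a repressive E2F, at 8.69 in resistant and 6.75 in parental cells. The MuvB core genes were nearer to equal, with LIN52 the lowest at -0.97 and LIN37 the highest at 0.47. MYBL2, the gene of B-MYB, differed by 0.44. The fourth lower gene was E2F7, a repressor of E2F targets, at -1.01. E2F7, LIN52, LIN37 and MYBL2 were named after their values were seen.

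Genes of the earlier G1/S step gave 4 of 23 at least 2-fold lower (17.4%) and 3 higher (13.0%), with a median of -0.28. Both shares lay near the background of 14.1% and 16.0%. TK1, thymidine kinase, stood at 10.64 in resistant and 12.75 in parental cells, MCM4, of the replicative helicase, at 11.29 in resistant and 12.80 in parental cells, and CCNE1, the gene of cyclin E1, at 10.67 in resistant and 7.26 in parental cells. The median of this list lay close to that of the mitosis genes. Of 8 measured genes around p53 and the CDK inhibitors, 0 were at least 2-fold lower and 1 higher (12.5%). That was GADD45A, a stress-induced gene, at 10.30 in resistant and 8.50 in parental cells, while the inhibitor genes CDKN1B and CDKN2B differed by 0.80 and 0.83.

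The label as a squamous line was checked on a list of general epithelial and squamous markers, of which 6 of 9 were measured. EPCAM, CDH1, SFN and KRT5 were above 12 log2 units on both arrays, but KRT14 stood at 5.17 in resistant and 11.39 in parental cells. DSG3 stood at 4.19 in resistant cells, under the background of 5.03 (the level that 95% of olfactory receptor genes did not exceed), and at 12.18 in parental cells. Of these 6 markers, 4 were at least 2-fold lower in the resistant line (14.1% of genes above the brightness level were). At 2-fold 1 was higher, EPCAM, by 1.37 log2 units (16.0% of genes were). The summed linear value of the 6 markers was 60777 in resistant and 230105 in parental cells. Without KRT5, the largest part of the parental sum, it was 46999 in resistant and 74233 in parental cells. No leukocyte marker of 4 was above background on either array, and of 5 fibroblast markers 1 was, COL1A1, at 5.26 in resistant and 5.22 in parental cells. Of 3 endothelial markers, CDH5 was above background on both arrays and PECAM1 on the resistant array. The part of the epithelial and squamous marker difference in the mitosis gene values was not tested.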

How the data were processed

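Total RNA of the cetuximab-resistant and the parental FaDu line was measured on 1 array each. The deposited values are log2 expression values per transcript cluster, a unit inferred from their range (1.95 to 19.78). Affymetrix Expression Console is the tool in the submitters' processing notes. Its algorithm, normalisation and build were not given in the sources used here, and no probe intensities were used. The sorted values of the arrays differed by a median of 0.06. Whether this comes from a normalisation before deposit was not tested, and a difference in total RNA per cell cannot be read from such values.

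Clusters with 1 symbol in the platform annotation (23781) were named, and 21497 symbols were updated through the gene identifier to RefSeq (GRCh38.p14). Of several clusters of a gene the brightest was used. Differences are resistant minus parental, described by size. With 1 array per line there is no test and no p-value, and the number of arrays limits the precision. Genes above the median brightness served as background.

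The members and the lists were chosen with earlier results of these data known. All members are named, and of each further list up to 3 genes above the brightness level with the largest absolute difference (up to 5 for the promoter factors). Alternatives were array centring, loess, quantile normalisation, the mean of clusters, raised background, other thresholds and brightness filters. The calculation was tested on simulated data. Python 3.11.15, pandas 2.3.3 and statsmodels 0.14.6 were used.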

Additional observations from a re-analysis of the deposited data

How the results depend on the processing

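The median difference of the members kept its sign under all alternatives run, between -0.27 (quantile normalisation) and -0.38 (loess). The count of members at least 2-fold lower was 6 or 7 under centring, loess, quantile normalisation, the mean of clusters, raised background and both brightness filters. The count at least 2-fold higher was 2 with each array centred on its median and with quantile normalisation, where CENPA passed 2-fold at 1.01 in both, and ASPM missed it at -0.97 with quantile normalisation. At 1.5-fold, 12 members were lower and 2 higher (24.7% and 26.1% of genes above the brightness level), and at 4-fold 0 were lower and 0 higher (3.84% and 5.44%). Relative to the 20 neighbouring genes, an alternative added after the data were seen, 2 were lower and 0 higher. The signs of AURKA, UBE2C and PTTG1 were not kept under centring and quantile normalisation, which left 23 members below 0, and those of CDK1 (-0.15), ANLN (-0.54) and TOP2A (0.09) were not kept relative to neighbours. No member past 2-fold changed sign. The kinetochore median was 0.00 after centring and 0.02 after quantile normalisation. No paired analysis was possible because each line had 1 array, and for the same reason no replicate could be left out.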

Other observations

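Copies of member genes limit what their clusters can show. RefSeq lists loci named as pseudogenes of CCNB2, AURKA, AURKB, NEK2, BUB1, MAD2L1, CDC20, UBE2C, PTTG1, DLGAP5 and MKI67, and of these CDC20P1 had a named cluster, with a difference of -0.73 beside -0.56 for CDC20. The antisense genes PRC1-AS1 and KIF23-AS1 had clusters of their own, at 5.23 and 4.46 in resistant and 5.92 and 4.63 in parental cells. The KIF23-AS1 values lie under the background level on both arrays (5.03 resistant, 5.09 parental).

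Members lay on 14 chromosomes, and their median difference was below that of the chromosome's genes on 11 and above it on 3 (chromosomes 2, 7 and 12). Chromosomes 3, 6, 7, 12, 14 and 16 held 1 member each, so there the median is the value of 1 gene. The 4 members on chromosome 15 (CCNB2, NUSAP1, PRC1, KIF23) had a median difference of -0.77, against -0.21 over 387 genes of that chromosome above the brightness level. The 5 members on chromosome 5 had a median of -0.49, against 0.07 over 497 genes. On chromosome 4 the medians were -0.14 for 3 members and 0.35 for 406 genes. On chromosome 2 they were 0.50 for 2 members and 0.27 for 744 genes. Chromosome 14, with DLGAP5 at -1.35, had a median of -0.91 over 383 genes.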
